A study of Mus musculus with 6 samples.

Results

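The S100 genes described here are S100a4, S100a6, S100a8, S100a9, S100a10 and S100a11, 6 of the 18011 gene symbols in the deposited tables, which write them in capitals (S100A4, S100A6, S100A8, S100A9, S100A10 and S100A11). They were chosen by name, as members of the S100 family of calcium-binding proteins, and all 6 were present in the table of every sample. Their levels were read in lineage-negative (Lin-) haematopoietic stem and progenitor cells of mice with a Stag2 knockout (Stag2 KO, libraries KO1, KO2 and KO3) and of mice with wild-type Stag2 (Stag2 wt, libraries WT1, WT2 and WT3). The series design text counts 3 mice of each genotype, and the values of each genotype are listed by replicate number. The STAG2 protein belongs to cohesin, a ring-shaped complex that joins sister chromatids and extrudes chromatin loops. The libraries were droplet single-cell 3′ libraries of 10x Genomics version 2 chemistry, in which unique molecular identifiers (UMIs) count RNA molecules. The labels used here give no age, sex, strain or Cre driver, and a Lin- selection removes most mature blood cells but not all. The code in the sample titles starts with XA for all KO libraries and for WT1, and otherwise for WT2 and WT3, and its meaning was not stated.

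S100 proteins are small EF-hand proteins that bind calcium and then dock onto partner proteins. S100a8 and S100a9 form calprotectin, the most abundant cytosolic protein of neutrophils, which binds zinc and manganese and, once released, signals through Tlr4 and Ager. S100a4 binds non-muscle myosin and is known in motile cells, S100a6 binds calcyclin-binding protein (Cacybp) and annexins, S100a10 forms a tetramer with annexin A2 (Anxa2) that binds plasminogen at the cell surface, and S100a11 partners annexin A1 (Anxa1).

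All 6 genes lie on mouse chromosome 3 (GRCm38, GENCODE vM21) in 2 stretches. S100a4 (chr3:90603771-90606045, plus strand), S100a6 (chr3:90612882-90624181, plus strand), S100a8 (chr3:90668978-90670035, plus strand) and S100a9 (chr3:90692632-90695721, minus strand) follow each other. S100a11 (chr3:93520488-93526287, plus strand) and S100a10 (chr3:93555080-93564643, plus strand) lie 28792 bases apart, further along. The promoters of S100a8 and S100a9 are shown because these genes moved together in the data below. They are the 250 bases before the RefSeq start (GRCm38.p6), at chr3:90668821-90669070 on the plus strand for S100a8 and at chr3:90695722-90695971 on the minus strand for S100a9. Capitals mark matches, on either strand, to the letters TTGCNNAA (a core of C/EBP factors) or GAGGAA (a core of PU.1), both being families of factors known to drive myeloid genes.
S100a8 promoter: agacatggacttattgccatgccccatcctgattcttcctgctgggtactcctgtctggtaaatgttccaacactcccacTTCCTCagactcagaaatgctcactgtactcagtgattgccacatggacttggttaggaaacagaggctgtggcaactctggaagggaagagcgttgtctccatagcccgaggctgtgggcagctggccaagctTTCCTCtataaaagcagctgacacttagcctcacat
S100a9 promoter: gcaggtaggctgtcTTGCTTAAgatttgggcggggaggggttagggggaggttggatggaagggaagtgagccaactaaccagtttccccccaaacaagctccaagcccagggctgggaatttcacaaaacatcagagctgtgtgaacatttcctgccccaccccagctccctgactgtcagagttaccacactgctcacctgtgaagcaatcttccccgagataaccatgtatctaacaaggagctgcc

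The S100a8 window held GAGGAA, read on the reverse strand, 170 and 36 bases before the RefSeq start, and the S100a9 window held the C/EBP letters 236 bases before it. Of 32817 mouse promoter windows of the same length, 23.3% held GAGGAA and 9.57% held TTGCNNAA, so both matches are common ones. The GENCODE start of S100a8 lies inside the RefSeq window. RefSeq windows were matched for 5 of the 6 genes. The S100a11 window (chr3:93520246-93520495) held GAGGAA at 153 bases and the AP-1 letters TGANTCA, which 6.75% of windows held, at 136 and 38 bases before the start, and those of S100a4 and S100a6 held none of these letters.

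The deposited tables held 2604 to 4635 cells per Stag2 KO library and 2783 to 7053 per Stag2 wt library, and 2385 to 4315 and 2412 to 6407 cells passed the filters. The median UMI count of kept cells was 5880, 5721 and 5891 in the KO libraries, against 4278, 4868 and 3458 in the wt libraries. Stag2 stood at 25.02, 23.6 and 20.1 CPM in the KO libraries and at 53.3, 43.2 and 42.8 in the wt libraries (log2 fold change -1.05, adjusted p = 0.000542, edgeR). Cells were clustered together with every S100 gene left out, and clusters were named from marker lists without S100 genes ("-like" below). Pairs of libraries shared 11 to 48 cell barcodes, at most 1.38% of the smaller library. Levels are CPM, the UMIs of a gene per 1000000 summed UMIs of a class in a library. They were set against each other within a gene and not between genes, since 3′ counts are not scaled by length. Genotypes were compared on these sums per library with edgeR's quasi-likelihood test, with Benjamini-Hochberg adjustment over all genes tested in a class. A call is an adjusted p under 0.05. S100a4 passed the filter on low counts in 5 of the 10 tested classes and the other members passed in all 10.

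S100a8 and S100a9 were held by the neutrophil branch in both genotypes. Late neutrophil-like cells numbered 63, 31 and 25 in the KO libraries and 3, 4 and 13 in the wt libraries, which is 1.46%, 1.30% and 0.687% against 0.124%, 0.0939% and 0.203% of kept cells. Granulocyte progenitor-like cells numbered 456, 169 and 322 in the KO libraries and 47, 120 and 388 in the wt libraries, or 10.6%, 7.09% and 8.85% against 1.95%, 2.82% and 6.06%. The KO libraries thus had the larger share of both classes, without overlap, and WT3 was the wt library nearest to them.

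In late neutrophil-like cells S100a8 stood at 83905, 99666 and 81362 CPM in the KO libraries, against 62445, 109018 and 125436 in the wt libraries. The KO values lay inside the wt range, and the class had too few wt cells for a test. S100a9 there stood at 59326, 69863 and 48559 in the KO libraries and at 47073, 76067 and 62647 in the wt libraries, again overlapping. The median late neutrophil-like cell held 945, 1313 and 993 S100a8 UMIs in the KO libraries and 1386, 815.5 and 1208 in the wt libraries.

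In granulocyte progenitor-like cells, the step before, S100a8 stood at 7051, 4558 and 7367 CPM in the KO libraries and at 3062, 4208 and 8302 in the wt libraries. The genotypes overlapped, WT3 having the highest value of all, and no difference was called (log2 fold change 0.21 ± 0.23 SE, adjusted p = 0.775, edgeR). S100a9 stood at 2235, 1566 and 1962 in the KO libraries and at 318, 738 and 2024 in the wt libraries. WT1 and WT2 were below every KO library and WT3 was within the KO range, and the difference was not called (0.81 ± 0.35 SE, adjusted p = 0.340, edgeR). Of the 6 members, 0 were called in this class, where 2.29% of all tested genes were, 0.832% higher. Both genes were called higher without WT3 (S100a8 0.74, adjusted p = 0.00952, and S100a9 1.78, adjusted p = 4.06e-05, edgeR). In the XA libraries alone the values were 0.99 and 2.54, with WT1 as the lone wt library, assumed to vary like the KO libraries. S100a9 was also called with the title prefix as a covariate (2.53, adjusted p = 0.00193) and without the low-count filter (0.83, adjusted p = 3.82e-16, edgeR). The sign turned, without a call, at Leiden resolution 2 (S100a8 -0.40, S100a9 -0.15). For S100a8 it also turned with S100 genes in the clustering (-0.12) and without WT1 (-0.06, edgeR). The median progenitor-like cell held 48, 33 and 55 S100a8 UMIs in the KO libraries, against 12, 18.5 and 30 in the wt libraries, at median depths of 13987.5, 17327 and 15460.5 against 16733, 16871.5 and 10479 UMIs.

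Together these classes held nearly all UMIs of both genes. Late neutrophil-like cells held 61.0%, 73.8% and 45.6% of a library's S100a8 UMIs in the KO libraries, against 59.9%, 35.0% and 30.7% in the wt libraries. Granulocyte progenitor-like cells held 36.5%, 21.7% and 51.8% in the KO libraries and 35.7%, 59.0% and 65.6% in the wt libraries. All other cells held 2.48%, 4.49% and 2.63% in the KO libraries and 4.40%, 6.04% and 3.70% in the wt libraries. For S100a9 the share of late neutrophil-like cells was 76.7%, 83.3% and 64.5% in the KO libraries, against 87.5%, 64.7% and 46.5% in the wt libraries, and all other cells held between 2.75% and 7.91%.

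**Figure D1:**
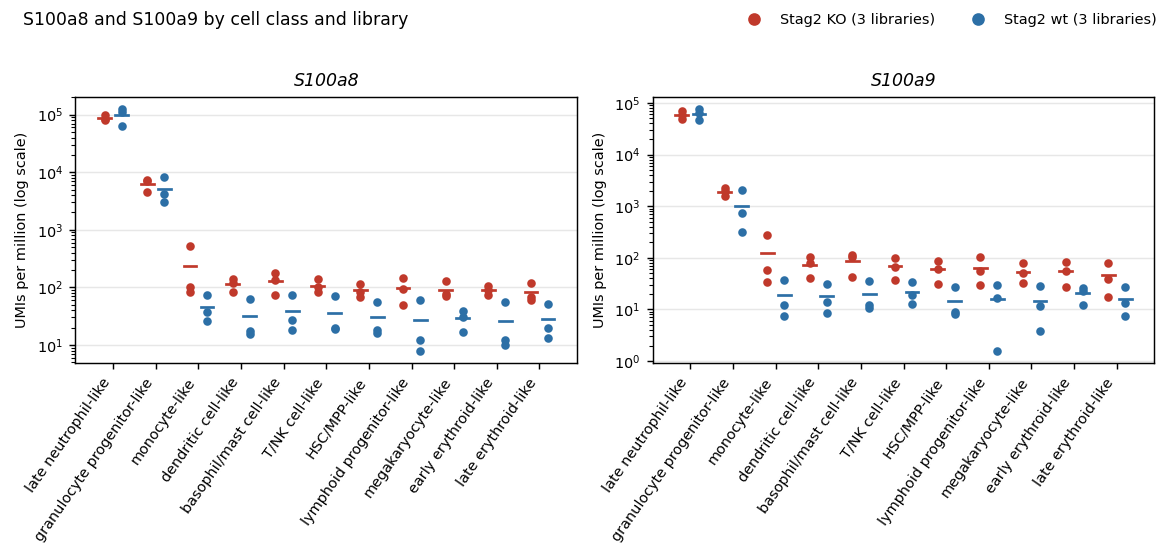
Levels of S100a8 and S100a9 in each class (CPM, log axis), with a point per library, Stag2 KO left of Stag2 wt. Late neutrophil-like cells stand at 62445 CPM or above for S100a8 in every library, and all classes outside the neutrophil branch lie far lower and shift together between genotypes.

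The classes outside the neutrophil branch gave low counts of S100a8 and S100a9 in every library, at a level that differed less between classes than between libraries. T/NK-like cells, lymphocytes that should not transcribe either gene, are the measure of that background. They held 135, 156 and 65 S100a8 UMIs in the KO libraries and 29, 45 and 173 in the wt libraries, which is 101, 139 and 82.8 CPM against 18.6, 19.8 and 71.0. This was 2.84%, 4.48% and 3.41% of the level over all cells of the same library in the KO libraries, and 4.14%, 4.08% and 4.42% in the wt libraries. The background thus followed each library's own S100a8. Over the 8 tested classes other than granulocyte progenitor-like and monocyte-like cells, S100a8 ranged from 67.2 to 179 CPM in KO1, 104 to 148 in KO2 and 48.5 to 83.9 in KO3. The same classes ranged from 9.86 to 30.8 in WT1, 7.87 to 19.8 in WT2 and 39.3 to 74.0 in WT3. The highest value of KO1 was that of basophil/mast cell-like cells, whose clusters with at least 20 cells stood at 109 to 118.5, and whose remaining cluster 0 held 8 cells there. S100a9 in T/NK-like cells stood at 67.5, 101 and 36.9 in the KO libraries and at 19.3, 12.7 and 34.1 in the wt libraries.

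Read without regard to that background, S100a8 was called higher in Stag2 KO in 8 of the 10 tested classes and S100a9 in 7. The T/NK-like class was among them (S100a8 1.39 ± 0.34 SE, adjusted p = 0.0308, and S100a9 1.53 ± 0.31 SE, adjusted p = 0.0101, edgeR), with 1.27% of all its tested genes called higher. In HSC/MPP-like cells, the stem and multipotent progenitor cells, the log2 fold changes were 1.41 for S100a8 and 1.85 for S100a9 (adjusted p = 0.00557 and 0.00355, edgeR, where 2.29% of genes were called, 0.612% higher). They were 1.53 and 1.90 in basophil/mast cell-like cells (adjusted p = 0.00887 and 0.00180, 4.2% called higher) and 1.70 and 1.95 in dendritic cell-like cells (adjusted p = 0.000875 and 0.000311, 7.17% called higher, edgeR). Early erythroid-like cells gave 1.58 and 1.34 (adjusted p = 0.00347 and 0.0129, 2% called, 0.887% higher) and megakaryocyte-like cells 1.65 and 1.60 (adjusted p = 0.00163 and 0.0233, 1.1% called, 0.377% higher, edgeR). In late erythroid-like cells S100a8 was called (1.16, adjusted p = 0.0243, 5.36% called higher) and S100a9 was not (1.14, adjusted p = 0.0915, edgeR), and without WT3 it was (2.04, adjusted p = 0.0261), as without KO3 (1.498, adjusted p = 0.0355). Neither was called in lymphoid progenitor-like cells (1.53 and 1.68, adjusted p = 0.192 for each, edgeR, 0.934% called, 0.284% higher), where S100a8 was called without WT3 (3.08, adjusted p = 0.00624).

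Single libraries, the tool and the title prefix decided several of these calls. Without WT2 the S100a8 call ended in HSC/MPP-like (1.07, adjusted p = 0.0989), T/NK-like (1.05, adjusted p = 0.133), late erythroid-like (0.90, adjusted p = 0.108) and megakaryocyte-like cells (1.23, adjusted p = 0.0833, edgeR). Without KO1 it ended in T/NK-like (adjusted p = 0.0858) and basophil/mast cell-like cells (1.21, adjusted p = 0.0596), and without KO2 in T/NK-like (1.14, adjusted p = 0.160) and late erythroid-like cells (0.84, adjusted p = 0.0991, edgeR). Without WT3, the wt library with the highest background, the S100a8 value was 2.27 in HSC/MPP-like, 2.35 in T/NK-like, 2.48 in basophil/mast cell-like, 2.73 in dendritic cell-like, 2.88 in early erythroid-like and 2.10 in late erythroid-like cells. The S100a9 call ended without WT2 in HSC/MPP-like (1.47, adjusted p = 0.0878), T/NK-like (1.21, adjusted p = 0.0571), early erythroid-like (1.01, adjusted p = 0.132) and megakaryocyte-like cells (1.27, adjusted p = 0.329, edgeR). Without KO2 it ended in T/NK-like (1.14, adjusted p = 0.0765), early erythroid-like (1.02, adjusted p = 0.0773) and megakaryocyte-like cells (1.29, adjusted p = 0.0788), and without KO1 in early erythroid-like cells (1.28, adjusted p = 0.0647, edgeR). With DESeq2 the S100a8 call was lost in 7 of the 8 classes, megakaryocyte-like cells being the exception, at log2 fold changes of 1.43 to 2.33 that were no smaller than edgeR's (adjusted p = 0.0942 to 0.596). The S100a9 call was lost with DESeq2 in HSC/MPP-like (1.96, adjusted p = 0.192), T/NK-like (1.52, adjusted p = 0.266), early erythroid-like (1.38, adjusted p = 0.540) and monocyte-like cells (2.69, adjusted p = 0.253). With the title prefix as a covariate S100a8 was not called in megakaryocyte-like (1.39, adjusted p = 0.493) and monocyte-like cells (3.11, adjusted p = 0.147), nor S100a9 in T/NK-like (1.69, adjusted p = 0.0959), early erythroid-like (1.07, adjusted p = 0.277), megakaryocyte-like (3.57, adjusted p = 0.330) and monocyte-like cells (4.01, adjusted p = 0.154, edgeR). With doublets kept S100a8 in basophil/mast cell-like cells turned to -0.18 (adjusted p = 0.907, edgeR).

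Set against the T/NK-like cells of the same library, the difference between genotypes was not called for either gene in any class. In dendritic cell-like cells the log2 fold change relative to T/NK-like cells was 0.25 ± 0.14 SE for S100a8 (adjusted p = 0.319) and 0.40 ± 0.15 SE for S100a9 (adjusted p = 0.156, limma, with 3.88% of genes called). In HSC/MPP-like cells it was -0.06 ± 0.13 SE for S100a8 and 0.32 ± 0.16 SE for S100a9 (adjusted p = 0.888 and 0.472, limma, 0.44% called), so the S100a8 difference in stem and progenitor cells was of the size of that in lymphocytes. In basophil/mast cell-like cells it was 0.08 ± 0.26 SE and 0.50 ± 0.24 SE (adjusted p = 0.910 and 0.329, limma, 1.97% called). Granulocyte progenitor-like cells gave -1.26 ± 0.43 SE and -0.14 ± 0.57 SE (adjusted p = 0.317 and 0.947, limma, 0.367% called). Leaving out a library in turn gave -1.55 to -0.84 for S100a8, and for S100a9 -0.75 to 0.31, where the sign turned. Both genes stood far above the T/NK-like level in this class. The log2 difference there mostly subtracts the T/NK-like fold change, and it does not show a lower level in Stag2 KO. With T/NK-like CPM subtracted, the KO and wt means were 6218 and 5154 for S100a8 and 1852 and 1005 for S100a9, with overlapping libraries. Monocyte-like cells gave log2 fold changes of 0.20 ± 0.48 SE and 0.68 ± 0.46 SE (adjusted p = 0.874 and 0.537, limma, 0.412% called). In the erythroid-like, lymphoid progenitor-like and megakaryocyte-like classes, where 0% to 0.194% of genes were called (0.106% in early erythroid-like, 0.194% in late erythroid-like, 0.013% in megakaryocyte-like cells), they ran from -0.26 to 0.41. A p that misses the threshold does not show equal levels, and with 3 libraries a genotype the exact permutation test of the level above T/NK-like cells (20 tests, two-sided) could not go below p = 0.1 and gave an adjusted p of at least 0.4.

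**Figure D2:**
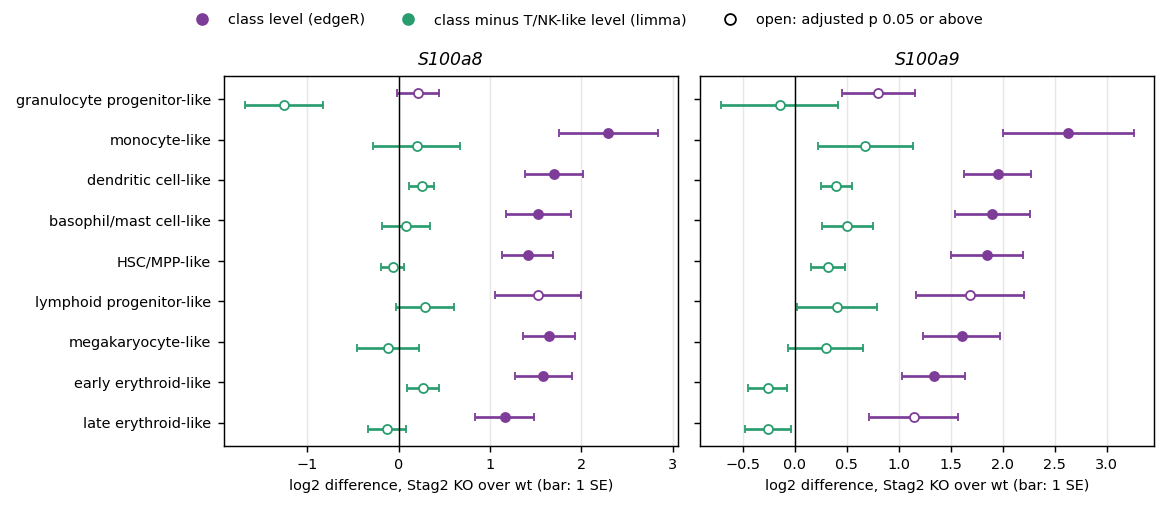
Log2 fold change, Stag2 KO over Stag2 wt, of S100a8 and S100a9 per class, as the class level (purple, edgeR) and relative to T/NK-like cells of the same library (green, limma), with standard errors. Filled points passed an adjusted p of 0.05. The purple points outside the neutrophil branch lie between 1.14 and 2.63 and the green ones between -0.26 and 0.68.

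The ratio between neutrophil genes gives a second reading of the background, since free RNA from a single source keeps its genes in a fixed ratio. The ratio of S100a9 to S100a8 UMIs in late neutrophil-like cells was 0.707, 0.701 and 0.597 in the KO libraries and 0.754, 0.698 and 0.499 in the wt libraries. In granulocyte progenitor-like cells it was 0.317, 0.344 and 0.266 in the KO libraries and 0.104, 0.175 and 0.244 in the wt libraries. In 7 other classes pooled, basophil/mast cell-like cells left out, it was 0.672, 0.731 and 0.445 in the KO libraries, against 0.939, 0.561 and 0.495 in the wt libraries. The background ratio lay above the progenitor ratio in all 6 libraries and nearer to the ratio of late neutrophil-like cells. The UMIs of Camp, which encodes the secondary granule peptide cathelicidin, also lay higher, per S100a8 UMI, in the pooled classes than in progenitor-like cells of every library. Camp per S100a8 UMI was 0.537, 0.496 and 0.463 in late neutrophil-like cells of the KO libraries and 0.387, 0.444 and 0.457 in those of the wt libraries. In progenitor-like cells it was 0.0301, 0.0367 and 0.0401 in the KO libraries and 0.00962, 0.0108 and 0.0377 in the wt libraries, against 0.389, 0.474 and 0.273 and 0.377, 0.271 and 0.191 in the pooled classes. In WT3 the pooled value was nearer to that of progenitor-like cells, and in the other libraries nearer to that of late neutrophil-like cells. Elane, the primary granule elastase of progenitors, did not follow: per S100a8 UMI it was 2.46, 1.94 and 2.77 in the pooled classes of the KO libraries and 9.34, 9.58 and 3.67 in those of the wt libraries. These exceeded the ratios in late neutrophil-like cells, which were 0.115 to 0.257 in the KO libraries and 0.137 to 0.287 in the wt libraries. In progenitor-like cells Elane per S100a8 UMI was 3.18, 4.48 and 2.91 in the KO libraries and 6.35, 5.45 and 2.94 in the wt libraries. By plain difference the pooled values lay nearer to these in every library except KO2. In KO2 the pooled 1.94 was nearer to the 0.115 of late neutrophil-like cells than to 4.48. The pool was uneven, with dendritic cell-like cells at 2.33 to 2.54 in the KO libraries and 5.73 to 20.7 in the wt libraries. T/NK-like cells stood at 1.44 to 1.89 and 2.36 to 4.31. Cells that were lost before sequencing were not analysed here, so the source of the background was not tested.

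**Figure D3:**
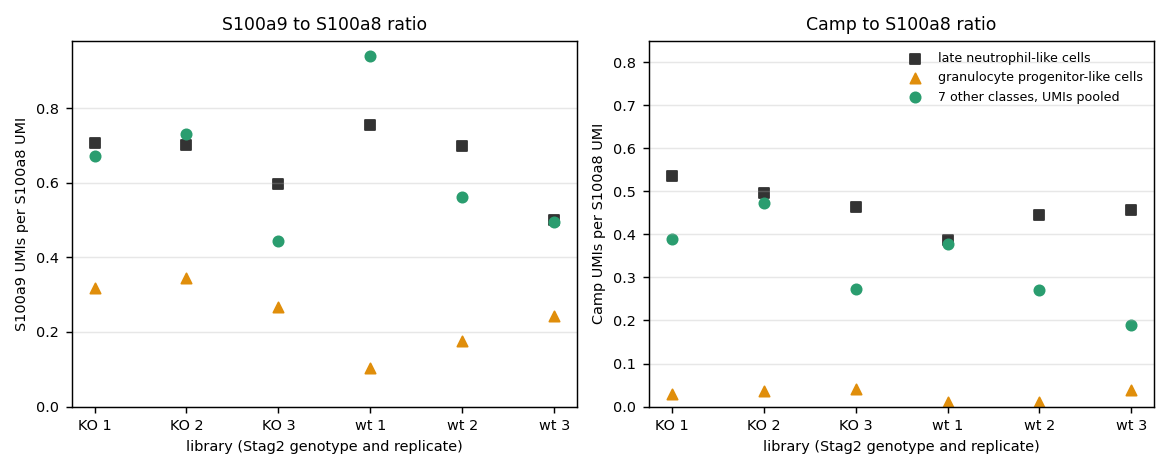
UMIs of S100a9 and of Camp per S100a8 UMI in late neutrophil-like cells, granulocyte progenitor-like cells and 7 other classes pooled, a point per library, Stag2 KO left of Stag2 wt. For Camp the pooled classes (0.191 to 0.474) lie below most late neutrophil-like values (0.387 to 0.537) and above all progenitor-like values (0.00962 to 0.0401).

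Counts per cell set the classes apart in the same way. Every cell was thinned to 2000 UMIs, and shallower cells were left out, so that 361, 276 and 204 T/NK-like cells remained in the KO libraries and 422, 586 and 643 in the wt libraries, and 527, 227 and 504 against 184, 344 and 458 HSC/MPP-like cells. Of T/NK-like cells, 30.2%, 37.3% and 22.5% in the KO libraries then held at least 1 UMI of S100a8 or S100a9, against 7.35%, 5.97% and 17.1% in the wt libraries. Of HSC/MPP-like cells, 26.4%, 39.6% and 18.8% did in the KO libraries and 3.804%, 5.52% and 13.8% in the wt libraries, below the T/NK-like share in 5 of the 6 libraries and above it in KO2. Unthinned, the HSC/MPP-like shares were 65.8%, 79.4% and 54.7% against 19.9%, 18.3% and 35.1%, at median depths of 7309, 8171 and 7284 against 8065, 7878 and 5406 UMIs. The unthinned T/NK-like shares were 41.7%, 54.9% and 31.8% in the KO libraries and 11.2%, 10.0% and 21.4% in the wt libraries, at median depths of 3106, 3253 and 2964 against 3227, 3302 and 2266 UMIs. Thinning lowers a count that is fixed per droplet more in deeper cells, and unthinned the HSC/MPP-like share was above the T/NK-like share in every library. These shares therefore do not tell background from expression. Whether HSC/MPP-like cells also made some of these transcripts was not tested. No cell of the HSC/MPP-like class held 10 or more such UMIs at 2000 UMIs per cell, which allows a share of up to 0.569% to 1.32% in the KO libraries and 0.655% to 1.63% in the wt libraries (3 counts, counting error only). All late neutrophil-like cells held 10 or more. Of granulocyte progenitor-like cells, 49.2%, 35.5% and 48.4% in the KO libraries and 23.4%, 28.3% and 44.0% in the wt libraries held 10 or more, with WT3 inside the KO range (difference of means 12.5 percentage points, exact permutation p = 0.2, two-sided, smallest possible 0.1).

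The S100a8 level of the monocyte-like class was highest in KO2, and every KO library lay above every wt library. S100a8 there stood at 99.8, 515 and 82.8 CPM in the KO libraries, against 26.1, 37.7 and 74.4 in the wt libraries (2.29 ± 0.54 SE, adjusted p = 0.0285, edgeR), and S100a9 at 57.8, 278 and 34.4 against 7.37, 11.99 and 37.5 (2.63 ± 0.63 SE, adjusted p = 0.0303, edgeR). The class had 3.33% of its tested genes called, 1.06% higher. In KO2, 4 monocyte-like cells (2.21%) held 10 or more S100a8 and S100a9 UMIs after thinning, and the highest cell held 240 S100a8 UMIs. With those 4 cells left out, an alternative chosen after seeing the data, KO2 stood at 152 for S100a8, against 99.8 and 82.8 in the other KO libraries and the same wt values. For S100a8 the genotypes still did not overlap (exact permutation p = 0.1, the smallest possible, so that this test could not pass 0.05). For S100a9 KO2 then stood at 114 (exact permutation p = 0.2). The S100a9 genotypes overlapped with and without those cells, KO3 (34.4) lying below WT3 (37.5). In the edgeR test the calls were lost without the KO2 library (S100a8 0.92, adjusted p = 0.0651, and S100a9 1.18, adjusted p = 0.127, edgeR). The S100a8 call was lost without WT1, WT2 or WT3 (2.07, 2.12 and 2.82, adjusted p = 0.0565, 0.132 and 0.0568) and the S100a9 call without WT1 or WT2 (2.36 and 2.30, adjusted p = 0.0533 and 0.150, edgeR).

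Summed over all kept cells, S100a8 stood at 3569, 3096 and 2430.4 CPM in the KO libraries, against 449.6, 484 and 1607 in the wt libraries (1.80 ± 0.43 SE, adjusted p = 0.0253, edgeR). S100a9 stood at 2007, 1924 and 1026 in the KO libraries and at 232, 183 and 530.2 in the wt libraries (2.35 ± 0.39 SE, adjusted p = 0.00424, edgeR). The genotypes did not overlap for either gene, and WT3 was the wt library with the most. Of the 6 members, 3 were called over all cells, S100a8 and S100a9 higher and S100a10 lower, where 11% of all tested genes were called, 3.74% higher and 7.23% lower. In such sums more cells of a type and more RNA per cell cannot be told apart. With each class weighted to the same share of cells in every library, the log2 fold change was 0.0059 for S100a8 (adjusted p = 0.987, edgeR) and 0.12 for S100a9 (adjusted p = 0.514, edgeR). That weighting scaled up the late neutrophil-like cells of the wt libraries, which numbered 3, 4 and 13. Both values therefore rest in part on few wt cells, and the part of class shares in the difference was not tested further. The S100a8 call was lost without KO1 (adjusted p = 0.0800), without WT2 (adjusted p = 0.0852) and with DESeq2 (adjusted p = 0.0684), and without WT3 the value was 2.68.

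Other genes of the neutrophil branch were counted from lists. Of 16 secondary granule and late neutrophil genes tested over all cells, 8 were called higher and 0 lower, with a median log2 fold change of 1.13 against 0.01 over all tested genes. Of all genes tested over all cells, 3.74% were called higher and 7.23% lower. Lcn2 (lipocalin), Chil3 and Wfdc21 rose by 2.33, 3.12 and 2.13 on the log2 scale, and Csf3r, the G-CSF receptor, by 0.85 (adjusted p = 0.000780, 0.00215, 0.00245 and 0.00101, edgeR). Of 10 primary granule genes 5 were called higher and 0 lower, with a median of 0.42, among them Prss57 (1.21), Prtn3 (0.99), Mpo (0.71) and Ctsg (0.47). Within granulocyte progenitor-like cells, where S100a8 and S100a9 were not called, 5 of 10 tested secondary granule and late neutrophil genes were called higher. Lcn2, Wfdc21, Chil3 and Anxa1 were among them. Of all genes tested in these cells, 0.832% were called higher. Lcn2 stood at 73.1, 87.4 and 71.2 CPM in those cells of the KO libraries and at 24.5, 24.1 and 21.1 in those of the wt libraries (1.69 ± 0.14 SE, adjusted p = 4.55e-07, edgeR). Chil3 stood at 110, 145 and 93.3 against 7.36, 19.5 and 48.1 (1.77 ± 0.26 SE, adjusted p = 0.000304, edgeR). Camp overlapped between genotypes there, at 212, 167 and 295 against 29.4, 45.6 and 313. These granule genes were among those used to cluster and name the cells, unlike the S100 genes.

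Of 9 factors known at S100a8 and S100a9 in human or mouse myeloid cells, 2 were called higher and 2 lower over all cells, where 3.74% of all genes were called higher and 7.23% lower. Cebpe, the C/EBP factor of secondary granule genes, stood at 129.5, 104 and 129 CPM in the KO libraries and at 42.3, 38.4 and 72.3 in the wt libraries (1.20 ± 0.21 SE, adjusted p = 0.00575, edgeR). Gfi1 was higher as well (0.72, adjusted p = 0.00212), and Cebpb (-0.51, adjusted p = 0.0214) and Irf8 (-0.45, adjusted p = 0.0475, edgeR) were lower. Spi1, which encodes PU.1, stood at 236 to 244 in the KO libraries and 230.3 to 243 in the wt libraries. In granulocyte progenitor-like cells only Cebpb passed among 8 tested factors (-0.43, adjusted p = 0.0469, edgeR), and Cebpe stood at 389, 371 and 419 in the KO libraries and at 265, 299 and 351 in the wt libraries (0.28, adjusted p = 0.238, edgeR). Of all genes tested in that class, 2.29% were called.

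S100a4 was a gene of monocyte-like, dendritic cell-like and T/NK-like cells. Its mean level over the 6 libraries was 323, 249.6 and 86.7 CPM in these classes, with overlapping ranges between neighbours, and T/NK-like cells stood apart from all lower classes. In T/NK-like cells S100a4 stood at 72.0, 159 and 158 in the KO libraries, against 55.9, 43.9 and 31.2 in the wt libraries. Every KO library was above every wt library (1.44 ± 0.26 SE, adjusted p = 0.00367, edgeR), in a class where 3 of the 6 members and 2.71% of all tested genes were called. In dendritic cell-like cells it stood at 254, 428 and 348 in the KO libraries and at 251, 126 and 89.2 in the wt libraries (1.10 ± 0.24 SE, adjusted p = 0.00368, edgeR), where 4 members and 16.3% of genes were called. Here WT1 was level with KO1. With the title prefix as a covariate, the dendritic cell-like call ended (0.35, adjusted p = 0.361) and the T/NK-like call ended too (0.9954, adjusted p = 0.182). With DESeq2 neither was called, at fold changes close to edgeR's (1.07, adjusted p = 0.181, and 1.44, adjusted p = 0.0701).

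The monocyte-like class itself did not pass for S100a4, at 262, 578 and 303 in the KO libraries and 431, 195 and 166 in the wt libraries (0.53 ± 0.32 SE, adjusted p = 0.452, edgeR). WT1 was the second highest of the 6 libraries, and without it the difference was called (1.08, adjusted p = 0.0178, edgeR). WT1 is the only wt library with the prefix XA, so without it prefix and genotype cannot be told apart. The sign turned with the title prefix as a covariate (-0.22, adjusted p = 0.830, edgeR) and in the XA libraries alone (-0.22). Single clusters, tested after seeing the class results, differed. Monocyte-like cluster 15, led by Ear2, Fcgr4 and Ace, stood at 646, 671 and 550.5 CPM in the KO libraries, against 293, 214 and 124 in the wt libraries (1.64 ± 0.24 SE, adjusted p = 0.00303, edgeR, 2.07% of genes called). Cluster 11, led by Cd209d and Klf4, stood at 133, 349.5 and 214 in the KO libraries and 545, 232 and 197 in the wt libraries (-0.52 ± 0.29 SE, adjusted p = 0.332, edgeR, 7.35% called). Cluster 15 held 20%, 18.2% and 13.3% of monocyte-like cells in the KO libraries and 29.97%, 40.5% and 42.5% in the wt libraries, so the class mixed cells of different S100a4 level in different proportions. Dendritic cell-like cluster 14, led by MHC class II genes and Cd209a, was called (673, 1181 and 1007 against 802, 447 and 308, 0.92 ± 0.22 SE, adjusted p = 0.0119, edgeR, 4.85% called). T/NK-like cluster 21, led by Cxcr6 and Cd3 genes, was called too (279, 388 and 536 against 191, 133 and 153, 1.28 ± 0.25 SE, adjusted p = 0.0366, edgeR, 0.334% called). Monocyte-like cluster 16 (1.03, adjusted p = 0.129, 1.1% called) and T/NK-like clusters 4 and 7 were not (0.83 and 1.74, adjusted p = 0.278 and 0.0512, edgeR, 2.26% and 0.233% called). Cluster 4, of natural killer genes, made up 63.9%, 55.8% and 66.1% of T/NK-like cells in the KO libraries and 29.7%, 36.0% and 32.1% in the wt libraries.

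Over all cells S100a4 stood at 38.0, 131 and 53.8 in the KO libraries and at 104, 46.9 and 29.9 in the wt libraries, with no difference called (0.28 ± 0.49 SE, adjusted p = 0.796, edgeR). KO2 and WT1 were the highest libraries, and the sign of this uncalled value turned without KO2 (-0.43), without WT3 (-0.05) and with the prefix as a covariate (-0.54). A cluster that stayed unnamed, number 26, had both 12 of 14 monocyte and 4 of 13 late neutrophil markers. It held 47, 68 and 27 cells in the KO libraries and 14, 16 and 21 in the wt libraries, and S100a4 there stood at 1016, 1686 and 1385 in the KO libraries and at 595 in WT3, the wt library with enough cells. Unnamed cells of all kinds held 26.5%, 32.2% and 18.0% of S100a4 UMIs in the KO libraries, against 15.3%, 9.64% and 12.2% in the wt libraries.

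**Figure D4:**
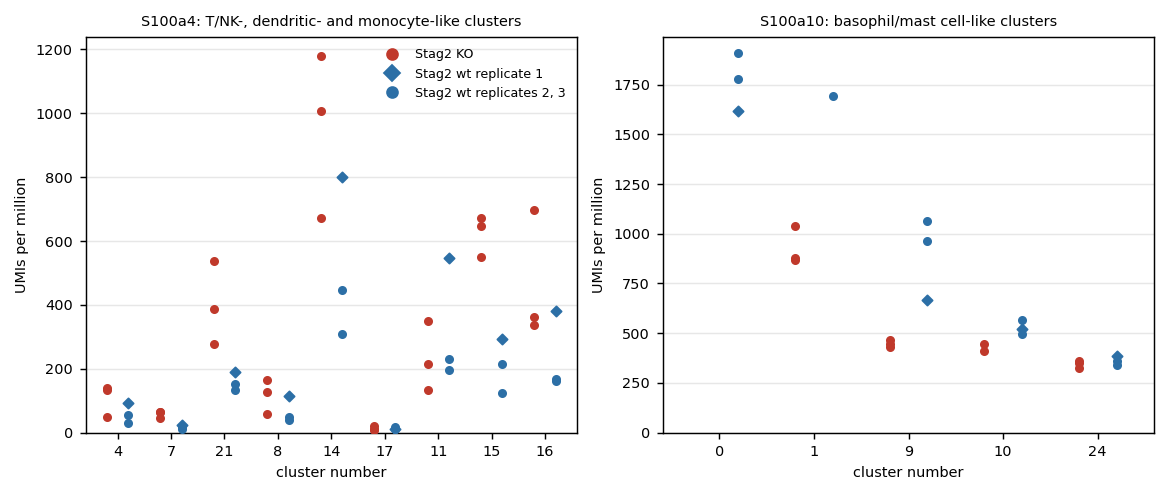
Levels of S100a4 in single T/NK-like, dendritic cell-like and monocyte-like clusters and of S100a10 in basophil/mast cell-like clusters (CPM), a point per library with at least 20 cells in the cluster, Stag2 KO left of Stag2 wt, WT1 drawn as a diamond. S100a10 in cluster 9 stands at 429.8 to 465 in the KO libraries and 665 to 1062 in the wt libraries, and cluster 0 has points in the wt libraries alone.

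S100a6 was highest in the same 3 classes as S100a4, in the same order, with a mean over the 6 libraries of 1630 CPM in monocyte-like, 963 in dendritic cell-like and 653 in T/NK-like cells and below 60 in every other tested class. In dendritic cell-like cells it stood at 1204, 1149 and 1124 in the KO libraries, against 719, 771 and 812 in the wt libraries, without overlap (0.52 ± 0.09 SE, adjusted p = 0.000373, edgeR). The clusters of the class had their own levels, and their shares differed. Cluster 8, led by Ly6d, Cox6a2 and Irf8, held 25.6%, 23.9% and 31.99% of the class in the KO libraries and 47.7%, 45.0% and 52.2% in the wt libraries, and S100a6 there was low (364, 417 and 388 against 324, 285 and 322). Within clusters 8, 14 and 17 no difference was called (0.26, 0.23 and -0.03, adjusted p = 0.236, 0.262 and 0.966, edgeR, 2.98%, 4.85% and 1.71% of genes called). The call of the class ended at Leiden resolutions of 0.5 and 2 (0.14 each, adjusted p = 0.471 and 0.517, edgeR) and when S100 genes could enter the clustering (0.15, adjusted p = 0.484, edgeR).

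In basophil/mast cell-like cells S100a6 was low and lower in Stag2 KO, at 20.8, 29.4 and 14.9 CPM in the KO libraries and 49.9, 44.7 and 40.4 in the wt libraries (-1.21 ± 0.18 SE, adjusted p = 0.000180, edgeR). Different clusters made up this class in each genotype: cluster 1, mostly of KO cells, stood at 33.3, 34.5 and 22.4 in the KO libraries, and cluster 0, mostly of wt cells, at 83.0, 90.5 and 78.8 in the wt libraries. Cluster 9, which had at least 20 cells in every library, was not called (3.93, 25.9 and 6.27 against 7.97, 24.3 and 17.6, -0.93 ± 0.62 SE, adjusted p = 0.409, edgeR). In monocyte-like cells it stood at 1732, 1754 and 1841 in the KO libraries and at 1472, 1374 and 1606 in the wt libraries, higher in each KO library but not called (0.24 ± 0.09 SE, adjusted p = 0.215, edgeR). Monocyte-like cluster 15 was called (1782, 1204 and 1529 against 739.5, 907 and 806, 0.86 ± 0.15 SE, adjusted p = 0.00622, edgeR). T/NK-like cells as a class were not called (582, 718 and 635 against 582, 707 and 693, -0.16 ± 0.11 SE, adjusted p = 0.573, edgeR), whereas the natural killer cluster 4 was called lower (458, 399 and 418 against 520.1, 624 and 668, -0.56 ± 0.12 SE, adjusted p = 0.0118, edgeR). Over all cells S100a6 stood at 196, 367 and 225 in the KO libraries, against 371, 346 and 308 in the wt libraries (-0.41 ± 0.20 SE, adjusted p = 0.243, edgeR). KO2 was level with the wt libraries, and without it the difference was called (-0.75, adjusted p = 0.00184, edgeR).

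**Figure D5:**
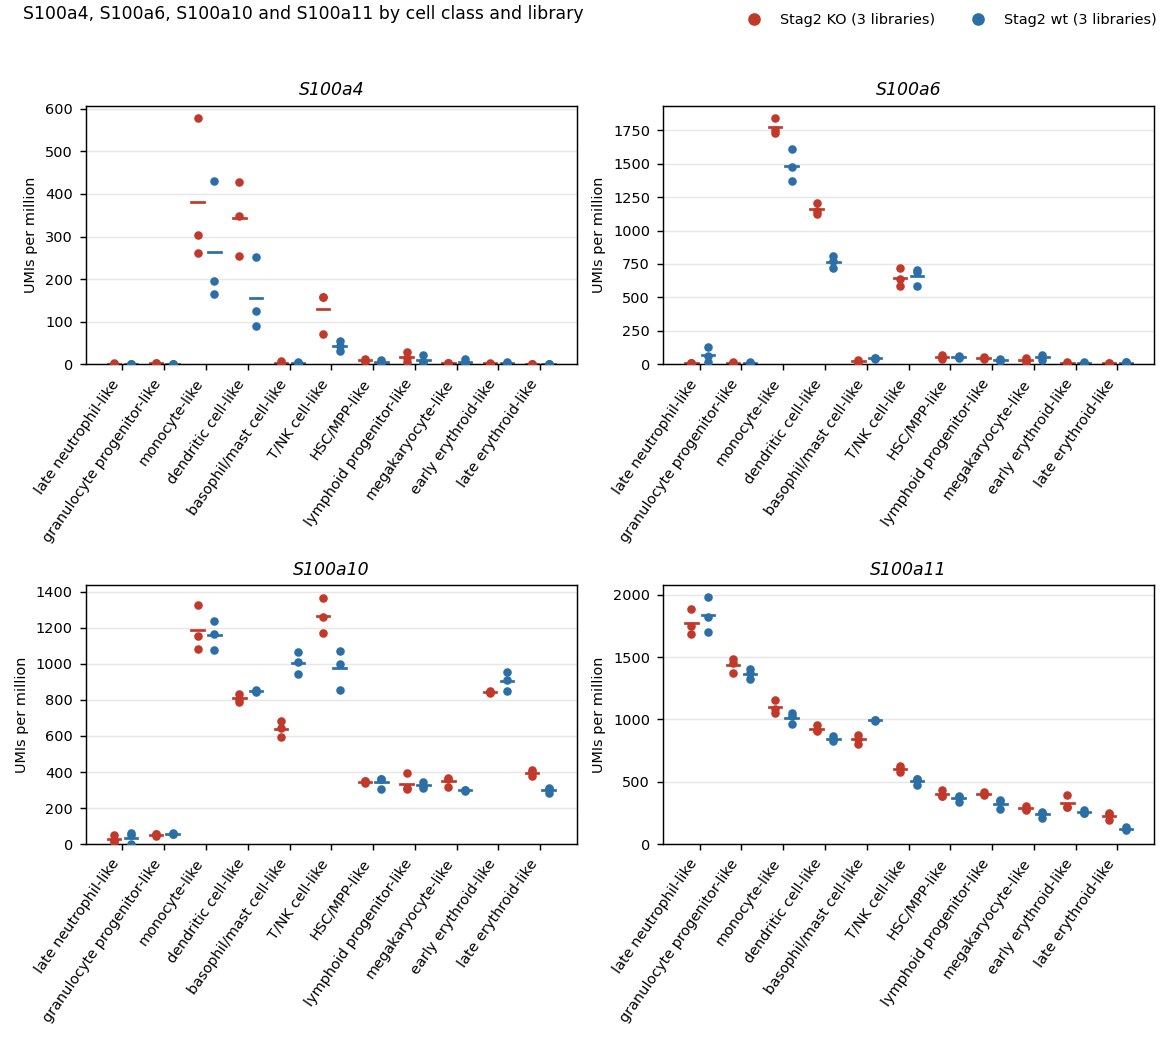
Levels of S100a4, S100a6, S100a10 and S100a11 in each class (CPM), a point per library, Stag2 KO left of Stag2 wt. S100a10 in basophil/mast cell-like cells stands at 595 to 681 in the KO libraries and 943 to 1064 in the wt libraries, and S100a6 in dendritic cell-like cells at 1124 to 1204 against 719 to 812.

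S100a10 was broadly present and lowest in the neutrophil branch. Its mean level ran through monocyte-like, T/NK-like, early erythroid-like, dendritic cell-like and basophil/mast cell-like cells (1175 to 824 CPM) to 54.95 in granulocyte progenitor-like and 31.8 in late neutrophil-like cells. In basophil/mast cell-like cells it stood at 595, 645 and 681 in the KO libraries, against 943, 1012 and 1064 in the wt libraries. The genotypes did not overlap (-0.77 ± 0.08 SE, adjusted p = 7.88e-06, edgeR), in a class where 5 of the 6 members and 11.9% of all tested genes were called. The difference from T/NK-like cells of the same library was called as well (-1.03 ± 0.13 SE, adjusted p = 0.00840, limma). By that test S100a6 was not called in basophil/mast cell-like (-0.90, adjusted p = 0.0885) or dendritic cell-like cells (0.63, adjusted p = 0.0639, limma). Nor was S100a11 in basophil/mast cell-like (-0.49, adjusted p = 0.116) or late erythroid-like cells (0.60, adjusted p = 0.219, limma). S100a4 was not called in dendritic cell-like cells (-0.20, adjusted p = 0.674) and was in basophil/mast cell-like cells (-1.38, adjusted p = 0.0423, limma). The S100a4 level of basophil/mast cell-like cells itself did not differ (-0.00015, adjusted p = 0.9998, edgeR), at 1.84, 7.08 and 2.04 CPM against 4.79, 2.88 and 2.02. The T/NK-like level rose by 1.44, and that rise sets the -1.38. For S100a4, S100a6, S100a10 and S100a11, which T/NK-like cells hold at higher levels, this reference is not a measure of background.

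Different clusters made up the basophil/mast cell-like class in each genotype, and S100a10 differed between them. Cluster 0, led by Defb40, Ccl6 and C5ar1, held 0.780%, 0.904% and 0.583% of the class in the KO libraries and 64.0%, 65.1% and 60.8% in the wt libraries, with S100a10 at 1619, 1777 and 1911 there. Cluster 1, led by Ccl3, Sytl3 and Cxcr2, held 59.6%, 63.7% and 60.9% in the KO libraries and 1.91%, 0.616% and 2.61% in the wt libraries, with S100a10 at 867, 878 and 1038 in those of the KO libraries and 1694 in WT3. Cluster 9, led by Gzmb, Lmo4 and Ms4a2, had at least 20 cells in every library and was called lower, at 429.8, 465 and 446 in the KO libraries and 665, 962 and 1062 in the wt libraries (-1.07 ± 0.12 SE, adjusted p = 2.06e-06, edgeR, 11.8% called). Cluster 24, of dividing cells by its histone genes, was not (361, 324 and 349 against 387, 342 and 359, -0.18 ± 0.13 SE, adjusted p = 0.590, edgeR, 4.49% called). Cluster 10, led by Mcpt8 and Prss34, had too few cells in KO2 for a test, and stood at 412 in KO1 and 447 in KO3, against 519, 496 and 564 in the wt libraries.

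In no other class was S100a10 called. T/NK-like cells had 1258, 1172 and 1368 in the KO libraries and 856, 1000 and 1071 in the wt libraries (0.25 ± 0.10 SE, adjusted p = 0.240, edgeR). Late erythroid-like cells had 376, 402 and 411 against 307, 309 and 284 (0.32 ± 0.11 SE, adjusted p = 0.0629, edgeR), a difference that was called with doublets kept (adjusted p = 0.0493) or with S100 genes in the clustering (adjusted p = 0.0390). Monocyte-like cells as a class were not called (1157, 1327 and 1083 against 1079.7, 1169 and 1237, 0.02 ± 0.10 SE, adjusted p = 0.970, edgeR), while cluster 11 was called lower (1022, 999.9 and 953 against 1286, 1470 and 1459, -0.53 ± 0.10 SE, adjusted p = 0.00121, edgeR). Over all cells S100a10 stood at 414, 511 and 448 in the KO libraries, against 651, 684 and 647 in the wt libraries (-0.56 ± 0.09 SE, adjusted p = 0.00351, edgeR). With equal class shares the value was -0.21 (adjusted p = 0.082, edgeR). Relative to the other classes of the same library, the basophil/mast cell-like difference was called for S100a10 (-0.73 ± 0.07 SE, adjusted p = 0.00379), S100a11 (-0.51 ± 0.07 SE, adjusted p = 0.0108) and S100a6 (-0.92 ± 0.17 SE, adjusted p = 0.0271, limma), in a test that called 6.47% of genes.

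S100a11 was highest in the neutrophil branch and, unlike S100a8 and S100a9, did not rise steeply along it. It stood at 1751, 1889 and 1688 CPM in late neutrophil-like cells of the KO libraries and at 1703, 1818 and 1981 in those of the wt libraries. Granulocyte progenitor-like cells had 1486, 1369 and 1454 in the KO libraries and 1369, 1401 and 1324 in the wt libraries (0.01 ± 0.08 SE, adjusted p = 0.986, edgeR), so the genotypes overlapped in both classes. In late erythroid-like cells, where its level was lowest, it stood at 190, 252 and 238 in the KO libraries, against 110.1, 141 and 118 in the wt libraries (0.77 ± 0.14 SE, adjusted p = 0.00140, edgeR). That class had 2 of the 6 members and 11.6% of its tested genes called. In basophil/mast cell-like cells S100a11 was called lower, at 805, 876 and 843 in the KO libraries and 992, 989 and 996 in the wt libraries (-0.36 ± 0.08 SE, adjusted p = 0.00451, edgeR). Within clusters 9 and 24 of that class it was not called (0.10 and -0.11, adjusted p = 0.632 and 0.756, edgeR). The class call was lost with the title prefix as a covariate, at a similar value (-0.37, adjusted p = 0.0559), and in cells with at least 2000 UMIs (-0.18, adjusted p = 0.317, edgeR). Monocyte-like cluster 15, where S100a4 and S100a6 were higher, was called lower for S100a11 (271, 256 and 159 in the KO libraries against 463, 406 and 448 in the wt libraries, -0.92 ± 0.20 SE, adjusted p = 0.0229, edgeR). Over all cells the values were 793, 814 and 784 in the KO libraries and 697, 687 and 730.0 in the wt libraries (0.14 ± 0.07 SE, adjusted p = 0.266, edgeR).

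Of the 11 other S100 genes in the tables, 3 passed the filter on low counts over all cells and S100a1 was called higher. S100a1, which binds the ryanodine receptor in muscle, stood at 133, 128 and 125 CPM in the KO libraries and 69.5, 74.2 and 97.6 in the wt libraries (0.64 ± 0.12 SE, adjusted p = 0.00813, edgeR). It was also called in basophil/mast cell-like (0.49, adjusted p = 0.00885) and late erythroid-like cells (0.68, adjusted p = 0.00851, edgeR). S100a13, which takes part in the release of FGF1, was called in late erythroid-like cells (0.57, adjusted p = 0.0257, edgeR). S100a1 was the 1 called gene among 16 tested neighbours within 500 kb of S100a4, S100a6, S100a8 and S100a9 over all cells, where 11% of all genes were called. No neighbour of S100a10 and S100a11 in that window, other than these genes themselves, passed the filter.

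Of 20 partners and receptors of S100 proteins tested over all cells, 0 were called higher and 4 lower, with a median log2 fold change of -0.01, equal in size to the 0.01 over all genes. Of all genes, 3.74% were called higher and 7.23% lower. The receptors Cd36 (1.38, 1.49 and 0.699 against 4.44, 5.52 and 3.71 CPM, -1.98, adjusted p = 0.00147) and Cd14 (0.265, 0.565 and 0.524 against 1.35, 2.62 and 1.99, -2.25, adjusted p = 0.00288, edgeR) were lower at low levels. The integrin chain Itgb2 was lower too (-0.54, adjusted p = 0.0157, edgeR). Monocyte-like cells made up 5.45%, 8.30% and 7.25% of kept cells in the KO libraries and 12.3%, 14.4% and 11.1% in the wt libraries, and the part of that share in these values was not tested. Anxa2, the partner of S100a10, stood at 131, 194 and 154 in the KO libraries and 206, 233 and 209.7 in the wt libraries (-0.47 ± 0.13 SE, adjusted p = 0.0460, edgeR). In basophil/mast cell-like cells, where S100a10 was lower, Anxa2 was lower as well, at 252, 286 and 289.9 in the KO libraries and 352, 426 and 401 in the wt libraries (-0.63 ± 0.09 SE, adjusted p = 0.000146, edgeR). Of 16 partners tested there 0 were called higher and 4 lower, the others being Anxa1, Itgb2 and Itgam, with 7.74% of all genes called lower. In dendritic cell-like cells, where 16.3% of all genes were called and 7.17% higher, 3 of 16 were called higher, Ahnak (245, 228 and 213 against 156, 119 and 121, 0.73 ± 0.12 SE, adjusted p = 0.000265, edgeR), Anxa1 (0.55) and Anxa5 (0.46), and Cacybp was lower (-0.46, adjusted p = 0.0102, edgeR). Ahnak encodes a very large scaffold that binds the S100a10 and Anxa2 complex. In granulocyte progenitor-like cells, where 2.29% of all genes were called, 1 of 15 was, Anxa1 (0.52, adjusted p = 0.00307, edgeR), the partner of S100a11.

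Across 60 points (10 classes in 6 libraries) the level of S100a8 was most like that of Wfdc21 (Pearson r = 0.958), Fcnb (0.930) and Elane (0.919) among 9244 genes, members left out, and S100a9 was most like Wfdc21 (0.920), Camp (0.892) and Fcnb (0.874). S100a4 was most like Fgr (0.930), Ahnak (0.930) and Pacsin1 (0.909) and S100a6 like Ahnak (0.941), Ms4a4c (0.918) and Samhd1 (0.909). S100a10 was most like H2-T23 (0.891), Sh3glb1 (0.869) and S1pr4 (0.866), and S100a11 like Fam49b (0.930), Arpc1b (0.919) and Selenos (0.915). Among the members, S100a8 with S100a9 gave 0.956 and S100a4 with S100a6 gave 0.953, whereas S100a10 with S100a11 gave -0.05. These values describe points that share libraries, depth and free RNA, and carry no test.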

How the data were processed

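The authors deposited, for each of 6 samples, a table of raw UMI counts per cell and gene with a cluster number per cell (a value of another kind, not used), per the file headers. Aligner, counter and build were not given in the sources used here. Kept cells had 500 or more genes and no more than 20% mitochondrial UMIs, and the doublets expected at 0.8% per 1000 cells were removed by simulated neighbours. Cells were clustered on 2000 variable genes without S100 genes (30 principal components, 15 neighbours, Leiden resolution 1, seed 1; igraph 0.11.9, leidenalg 0.10.2, scikit-learn 1.9.0, Python 3.11.15) and 31 clusters were named from marker lists or stayed unnamed. Counts were summed per sample and class where every sample had at least 20 cells, and tested with edgeR 4.0.16 in R 4.3.3 (TMM factors, filterByExpr, quasi-likelihood), with DESeq2 1.42.0 as an alternative. Differences from the T/NK-like class, or from the mean of the other classes, were tested with limma 3.58.1 on log2(CPM + 5). The p-values measure the spread between 3 mice of each genotype. The test scripts were first run on simulated data with 200 changed genes. Levels are CPM (UMIs per 1000000). Depth per library is given in the report. Intervals and floors cover counting error only. Promoters come from RefSeq, positions from GENCODE vM21. The genes, lists and tests were chosen with earlier results of these data known. Named were the 6 members, from each of 6 gene lists up to 4 genes with the smallest p, tested neighbours that were called, and the 3 genes most alike each member. Of the alternatives, 18 were planned and 3 were added after seeing the data.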

Additional observations from a re-analysis of the deposited data

Results flagged for a closer look

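For 3 of the genes the difference between genotypes in basophil/mast cell-like cells differed from the mean difference in the other classes of the same libraries, by limma on log2(CPM + 5). S100a10 differed by -0.7325 on the log2 scale (SE 0.0735, adjusted p = 0.00379), S100a11 by -0.5134 (SE 0.0674, adjusted p = 0.0108) and S100a6 by -0.918 (SE 0.17, adjusted p = 0.0271). Of all genes tested in this way in basophil/mast cell-like cells, 6.47% were called. All 3 were lower in Stag2 KO, relative to the other classes. Different clusters made up this class in each genotype, as given above, and their part in these values was not tested.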

How the results depend on the processing

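The 6 genes had 1090 values under alternatives, of which 943 kept their direction and their side of the threshold, 66 lost a call, 19 gained 1, 61 moved without a call and 1 reversed (S100a8 in basophil/mast cell-like cells with doublets kept, -0.18). The cause was not tested. No paired analysis was possible because the sample numbers follow accession order and pair no KO with a wt mouse. Over all cells, equal class shares gave 0.0059 for S100a8, 0.12 for S100a9, -0.21 for S100a10 and 0.18 for S100a6. For S100a8 and S100a9 this weighting scaled up the few late neutrophil-like cells of the wt libraries. S100a8 was 1.79 with DESeq2 and 1.70 in cells with at least 2000 UMIs, S100a11 was -0.0735 without the neutrophil branch, and S100a4 was -0.54 both with the title prefix as a covariate and in the XA libraries alone. Leaving out a library in turn gave 1.49 to 2.68 for S100a8 (the highest without WT3), -0.43 to 0.92 for S100a4, -0.75 to -0.23 for S100a6 and -0.75 to 0.31 for S100a9 in granulocyte progenitor-like relative to T/NK-like cells. The number of genes called (1386 over all cells, 221 HSC/MPP-like, 205 T/NK-like, 1169 basophil/mast cell-like, 1400 dendritic cell-like, 151 early erythroid-like, 204 granulocyte progenitor-like, 721 late erythroid-like, 46 lymphoid progenitor-like, 67 megakaryocyte-like, 280 monocyte-like) depended on the setting. DESeq2 called 125 in HSC/MPP-like, 128 in T/NK-like, 762 in basophil/mast cell-like, 845 in dendritic cell-like, 86 in early erythroid-like, 116 in granulocyte progenitor-like, 335 in late erythroid-like, 25 in lymphoid progenitor-like and 25 in megakaryocyte-like cells. With the title prefix as a covariate 746 were called over all cells, 82 in HSC/MPP-like, 94 in T/NK-like, 384 in basophil/mast cell-like, 603 in dendritic cell-like, 37 in granulocyte progenitor-like, 284 in late erythroid-like, 11 in megakaryocyte-like and 67 in monocyte-like cells. The XA libraries alone, where the lone wt library is assumed to vary like the KO libraries, gave 523 over all cells, 135 in HSC/MPP-like, 358 in basophil/mast cell-like, 801 in dendritic cell-like, 76 in granulocyte progenitor-like, 385 in late erythroid-like, 75 in lymphoid progenitor-like, 12 in megakaryocyte-like and 56 in monocyte-like cells. Without the low-count filter 389 were called in HSC/MPP-like, 384 in T/NK-like, 241 in early erythroid-like, 339 in granulocyte progenitor-like, 88 in lymphoid progenitor-like, 118 in megakaryocyte-like and 568 in monocyte-like cells. S100 genes in the clustering gave 350 in dendritic cell-like and 140 in monocyte-like cells, cells with at least 2000 UMIs gave 179 in monocyte-like cells, resolution 0.5 gave 338 in dendritic cell-like and 286 in early erythroid-like cells, and resolution 2 gave 346, 61 and 103 in dendritic cell-like, early erythroid-like and megakaryocyte-like cells. Leaving out a library in turn gave 756 to 1413 over all cells, 113 to 298 in HSC/MPP-like, 123 to 236 in T/NK-like, 738 to 1255 in basophil/mast cell-like, 825 to 1456 in dendritic cell-like, 104 to 230 in granulocyte progenitor-like, 409 to 690 in late erythroid-like, 9 to 62 in lymphoid progenitor-like, 33 to 86 in megakaryocyte-like and 136 to 348 in monocyte-like cells. In these classes the lowest count was that without KO1, KO3, WT2 or WT3. Cell number limits late neutrophil-like cells to levels without a test, since WT1 and WT2 held 3 and 4 such cells.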
